A study of Mus musculus with 6 samples.

Results

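The genes described here are the 10 cytotoxic effector genes Gzma, Gzmb, Gzmc, Gzmd, Gzme, Gzmf, Gzmk, Prf1, Fasl and Nkg7, taken by their symbols from a table of 55487 genes, and all 10 were found. RNA was sequenced from 6 subcutaneous tumors of CT26.WT, a colon carcinoma line derived from a BALB/c mouse, grown in male immunocompetent BALB/c mice bought at 4 weeks of age. The 3 control tumors came from mice given PBS and the 3 IFN-γ tumors from mice given 100 µL of IFN-γ at 100 ng/ml, both through the tail vein, the IFN-γ every 48 h. The comparison asked how systemic IFN-γ changed gene expression in the whole tumor. The study used 6 mice per group, and the labels do not say how the sequenced tumors were chosen or whether each library is 1 animal, so the p-values measure only the spread between these libraries.

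Cytotoxic lymphocytes, mainly CD8+ T cells and natural killer cells, kill target cells by releasing granules. Perforin opens pores in the target membrane, and granzymes, a family of serine proteases, enter through them and cleave proteins that set off cell death. Fas ligand kills by another route, through the death receptor Fas on the target. The mouse carries a cluster of granzyme genes close to Gzmb that arose by duplication, and granzymes are made by few cells outside the lymphoid lineage.

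The libraries held between 15759300 and 17559680 counts on genes, and the detection floor of 3 counts lay at 0.169 to 0.188 CPM, the counts scaled to a common library size. That floor was taken as the limit that a count of 0 allows, for counting error only. IFN-γ tumor 3 stood apart from the other 5 libraries. Its summed level of 18 epidermal keratinocyte genes was 143 CPM, against 12.7 to 23.1 CPM in the controls and 13.8 CPM in IFN-γ tumor 1 and 13.2 CPM in IFN-γ tumor 2. Its level of Ptprc, the leukocyte marker CD45, was the lowest at 107 CPM, against 132 to 181 CPM in the controls, 252 CPM in IFN-γ tumor 1 and 236 CPM in IFN-γ tumor 2. Fold changes of the effector genes are therefore given with and without this tumor. The keratinocyte list was added after the data were seen. Leaving out the IFN-γ tumor with the least Ptprc raises the fold change of any gene that follows Ptprc over the tumors. Calls in that fit are therefore not separate support for a higher level under IFN-γ. Of the epithelial markers, Krt20 lay between 113 and 271 CPM in the 6 tumors, while Epcam was at 0.928 CPM or less in each.

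The positions of the genes show which of them are neighbors. In the GENCODE M21 annotation of GRCm38 all 10 are protein coding. Gzmb lies on the minus strand of chromosome 14 from 56258838 to 56262260. Gzmc follows from 56231441 to 56234656, Gzmf from 56205263 to 56211417, Gzmd from 56129556 to 56132608 and Gzme from 56117626 to 56120625, all on the same strand. Gzma (chromosome 13, 113093825 to 113100981) and Gzmk (chromosome 13, 113171608 to 113225908), which encode the tryptases of the family, are a separate pair. Prf1 lies on chromosome 10 from 61297833 to 61304680, Fasl on chromosome 1 from 161780689 to 161788495 and Nkg7 on chromosome 7 from 43437073 to 43438249.

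Sequences of the cluster on chromosome 14 are shown because 2 of its members, Gzmd and Gzmf, had their reads mostly in 1 tumor, and because its genes resemble each other so closely that reads can be shared between them. The first 60 coding bases of the spliced transcripts (GENCODE M21, GRCm38) are printed from the ATG, with capitals where a base differs from that of Gzmd at the same place. Gzmg, a granzyme of the cluster that is not among the 10 genes, had 0 differences, Gzmf 1, Gzme 3 and Gzmb 25. On the minus strand, the first 55 of these bases lie at chr14:56132468-56132522 for Gzmd, chr14:56159470-56159524 for Gzmg, chr14:56211303-56211357 for Gzmf, chr14:56120502-56120556 for Gzme and chr14:56262095-56262149 for Gzmb, and the last 5 in the next exon.
Gzmd: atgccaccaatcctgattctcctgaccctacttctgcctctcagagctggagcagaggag
Gzmg: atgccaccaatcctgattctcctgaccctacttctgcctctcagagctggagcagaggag
Gzmf: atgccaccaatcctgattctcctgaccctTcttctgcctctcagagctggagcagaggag
Gzme: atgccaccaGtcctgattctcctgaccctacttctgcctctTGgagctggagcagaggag
Gzmb: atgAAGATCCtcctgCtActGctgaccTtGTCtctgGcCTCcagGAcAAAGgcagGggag

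Over the whole coding sequence, Gzmd was 93.3% identical to Gzme, 86.4% to Gzmg and 83.3% to Gzmf. Gzmb was 75.0% identical to Gzmc and 64.7% to Gzmd. Of the 50-base words in the transcripts of Gzmd, 21.9% also occurred in another granzyme transcript, as did 20.6% of those of Gzme, 7.36% of those of Gzmf and 4.14% of those of Gzmc. For the other 6 genes the share was 0%. With words of 100 bases, Gzmd kept 0.231% and the other 9 genes 0%. The read length and the counting rule are not given in the sources used here, so the split of reads among Gzmd, Gzme, Gzmf and Gzmg is uncertain.

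The promoters of these genes resemble each other in the same way. A run of 20 bases, in capitals, was the longest shared by the promoters of Gzmc, Gzmd, Gzme, Gzmf and Gzmg, and these 5 were the only ones to hold it among the 250 bases upstream of the start of all genes (RefSeq, GRCm38.p6). The windows below are 77 bases on the minus strand of chromosome 14, at chr14:56234671-56234747 for Gzmc, chr14:56211446-56211522 for Gzmf, chr14:56132611-56132687 for Gzmd and chr14:56120644-56120720 for Gzme.
Gzmc: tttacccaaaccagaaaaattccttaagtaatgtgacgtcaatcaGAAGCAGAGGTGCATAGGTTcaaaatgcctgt
Gzmf: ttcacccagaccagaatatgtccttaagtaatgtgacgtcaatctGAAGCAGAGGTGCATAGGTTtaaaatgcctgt
Gzmd: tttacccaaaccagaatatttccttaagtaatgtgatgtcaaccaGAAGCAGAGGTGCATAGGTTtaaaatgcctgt
Gzme: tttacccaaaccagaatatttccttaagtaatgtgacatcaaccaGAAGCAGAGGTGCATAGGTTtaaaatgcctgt

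Short motifs were searched in the 250 upstream bases on both strands, and 0 matches overlapped with those of another motif. The cAMP response element TGACGTCA stood in Gzmc and Gzmf but not in the windows of Gzmd and Gzme, and in 1.55% of all 32851 promoters. The RUNX letters TGTGGT stood in 8 of the 10 genes, against 14.0% of all promoters, and 4 of these 8 are the similar promoters of the cluster. The T-box letters GGTGTGA were found in Gzmk and Nkg7 (3.33% of all promoters). The tandem element bound by interferon regulatory factors was found in Gzma (2.98% of all promoters). Only Gzmb held the AP-1 letters TGANTCA (6.75%). Its promoter is printed from chr14:56262351-56262439, minus strand, with the AP-1 and RUNX letters in capitals. A match is a stretch of letters and not a measured binding site.
Gzmb: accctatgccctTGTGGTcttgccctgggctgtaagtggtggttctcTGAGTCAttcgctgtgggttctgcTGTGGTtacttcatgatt

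The tumors expressed the granule genes at moderate levels, with Gzma, Nkg7 and Gzmb on top. Per kilobase of exon, the mean level in the control group was 19.6 ± 7.22 CPM per kb for Gzma (SD, n = 3), 15.0 ± 4.13 for Nkg7 and 14.8 ± 1.24 for Gzmb, and these 3 differed by less than the spread between tumors. Prf1 followed at 5.66 ± 2.10 CPM per kb and Gzmc at 2.94 ± 1.41, then Fasl at 1.26 ± 0.411. The control ranges of Prf1 and Gzmc overlapped, as did those of Gzmc and Fasl, although each control tumor had more Prf1 than Gzmc and more Gzmc than Fasl per kb. The control ranges of Gzmb and Prf1 did not overlap, nor did those of Fasl and Gzmk, which was at 0.614 ± 0.118 CPM per kb. Lowest were Gzme, Gzmf and Gzmd, with 0.108, 0.0849 and 0.0393 CPM per kb. These 3 were at or below 3 counts in each control tumor. The order from Gzma to Fasl was the same in the IFN-γ group.

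IFN-γ tumors 1 and 2 had more effector RNA than the controls for most genes, and IFN-γ tumor 3 had less. Gzmb, the granzyme that activates caspases in the target cell, was at 19.2, 22.4 and 22.1 CPM in control tumors 1, 2 and 3. The IFN-γ tumors with these numbers were at 29.1, 41.8 and 13.2 CPM. The controls lay close together, IFN-γ tumors 1 and 2 were above all of them and IFN-γ tumor 3 was below all of them, so the groups overlapped. With all 6 tumors the log2 fold change of Gzmb was 0.40 (standard error 0.34, adjusted p = 0.75, edgeR's quasi-likelihood test with Benjamini-Hochberg adjustment over the 15114 genes tested). Without IFN-γ tumor 3 it was 0.73 (standard error 0.16, adjusted p = 0.046, edgeR), and without IFN-γ tumor 2 it was -0.0053.

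Gzma, the most abundant tryptase of the granules, was at 15.7, 15.3 and 28.1 CPM in the controls and at 28.3, 37.1 and 13.9 CPM in the IFN-γ tumors. Control tumor 3 was as high as IFN-γ tumor 1, and the groups overlapped because of IFN-γ tumor 3. Gzmk, a second tryptase, had few reads, with control counts of 11, 18 and 15 and IFN-γ counts of 29, 24 and 9. These made 0.688, 1.01 and 0.857 CPM against 1.68, 1.47 and 0.557 CPM. As for Gzmb, the IFN-γ tumors lay on both sides of the control range. The log2 fold change in all 6 tumors was 0.42 (standard error 0.36) for Gzma and 0.53 (standard error 0.44) for Gzmk, with an adjusted p of 0.75 for both (edgeR). Without IFN-γ tumor 3 they were 0.72 (standard error 0.25, adjusted p = 0.19, edgeR) and 0.87 (standard error 0.37, adjusted p = 0.29, edgeR). Gzma was at 0.27 without control tumor 2, 0.76 without control tumor 3 and 0.097 with IFN-γ tumor 2 left out. Gzmk was at 0.24 with IFN-γ tumor 1 left out.

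**Figure D1:**
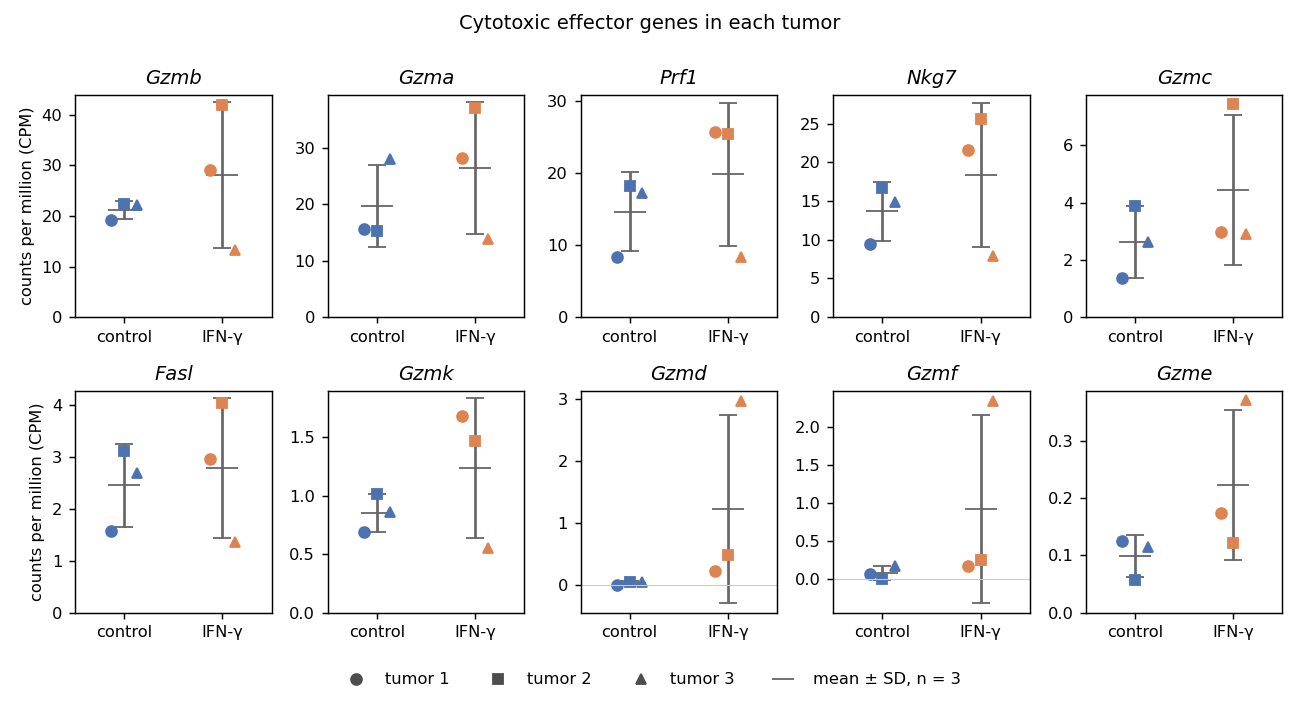
CPM of the 10 genes in each tumor, 1 panel per gene, with the control group in blue and the IFN-γ group in orange; marker shapes give the tumor number, and lines give the mean ± SD (n = 3). IFN-γ tumor 3 is the lowest point for Gzmb (13.2 CPM), Gzma, Prf1, Nkg7, Fasl and Gzmk, and the highest for Gzmd (2.97 CPM), Gzmf and Gzme.

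Perforin and the granule protein Nkg7 were also high in IFN-γ tumors 1 and 2 and low in IFN-γ tumor 3. Prf1 was at 8.38, 18.2 and 17.3 CPM in the controls and at 25.7, 25.4 and 8.35 CPM in the IFN-γ tumors. Control tumor 1 and IFN-γ tumor 3 were equally low, and the other 4 tumors separated by group. Nkg7, a membrane protein of the granules needed for their release, was at 9.44, 16.7 and 14.9 CPM against 21.7, 25.7 and 7.92 CPM. The log2 fold changes were 0.44 for Prf1 (standard error 0.43, adjusted p = 0.79, edgeR) and 0.43 for Nkg7 (standard error 0.39, adjusted p = 0.78, edgeR) with all 6 tumors. Without IFN-γ tumor 3 they were 0.79 (standard error 0.27, adjusted p = 0.18, edgeR) and 0.78 (standard error 0.22, adjusted p = 0.11, edgeR). The 2 values also moved with other tumors left out. Prf1 was at 0.16 when control tumor 1 was dropped, at 0.20 for IFN-γ tumor 1 and at 0.22 for IFN-γ tumor 2, and Nkg7 was at 0.22 and 0.11 when control tumor 1 or IFN-γ tumor 2 was dropped.

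Fasl, the ligand of the death receptor Fas, differed least. It was at 1.56, 3.10 and 2.69 CPM in the controls and at 2.96, 4.03 and 1.36 CPM in the IFN-γ tumors, so only IFN-γ tumor 2 was above every control. Its log2 fold change was 0.18 with all 6 tumors (standard error 0.42, adjusted p = 0.92, edgeR) and 0.50 without IFN-γ tumor 3. It fell below 0 without control tumor 1 (-0.054) or without IFN-γ tumor 2 (-0.18).

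Of the 10 genes, 7 passed the filter on low counts and were tested, and 0 of the 7 passed the adjusted threshold of 0.05 in all 6 tumors. Of all genes tested, 0.112% did. None of the 7 had an unadjusted p under 0.05, against 10.2% of all genes. DESeq2, limma-voom and the other fits of all 6 tumors that kept the filter called 0 of them too (DESeq2 called 1.3% of all genes). For Gzmk no DESeq2 comparison was available. All 7 fold changes were above 0, with a median of 0.43 on the log2 scale against 0.0015 for all genes tested. The groups overlapped for each of the 7, while for 15.1% of all genes tested they did not. IFN-γ tumor 3 was the lowest of the 6 tumors for 6 of the 7, against 21.3% of all genes, and Gzmc was the exception. IFN-γ tumors 1 and 2 were both above every control for 5 of the 7, against 18.1% of all genes. Relative to the control mean, IFN-γ tumor 2 lay between 1.65 times for Fasl and 2.83 times for Gzmc, and IFN-γ tumor 3 between 0.555 times for Fasl and 1.10 times for Gzmc.

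Without IFN-γ tumor 3, 1 of the 7 genes, Gzmb, passed the adjusted threshold, and 2.46% of the 15487 genes tested were called higher. The unadjusted p was under 0.05 for 5 of the 7, against 16.3% of all genes. The median of the 7 log2 fold changes was then 0.78, with Gzmc highest at 0.96 and Fasl lowest at 0.50. Without both control tumor 1 and IFN-γ tumor 3, a choice made after seeing the data, 0 passed, and the change of Gzmb was 0.66 on the log2 scale, with an adjusted p of 0.13 (edgeR), while 1.42% of all genes were called in either direction. The call for Gzmb thus rested on which tumors were included.

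**Figure D2:**
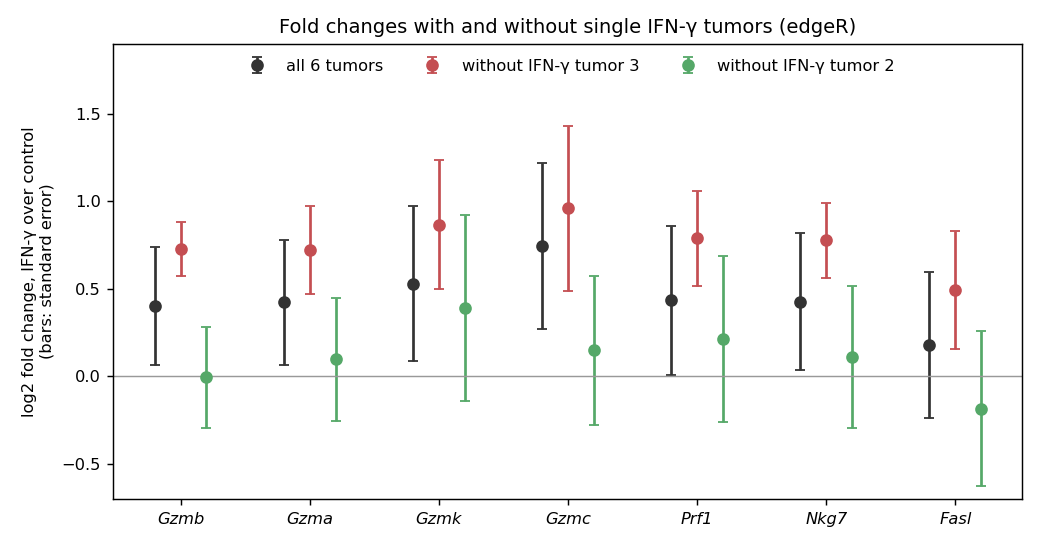
Log2 fold changes (IFN-γ over control) of the 7 genes tested, from edgeR, with all 6 tumors in black, without IFN-γ tumor 3 in red and without IFN-γ tumor 2 in green; bars are standard errors. All 7 black points lie above 0, between 0.18 and 0.75, the red points are higher, and the green points of Gzmb (-0.0053) and Fasl (-0.18) are below 0.

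Markers of the cells that carry these effectors moved with them. The summed level of 5 T cell genes (Cd3d, Cd3e, Cd3g, Cd247 and Trac) was 24.4 to 33.3 CPM in the controls, 46.7 CPM in IFN-γ tumor 1, 60.7 CPM in IFN-γ tumor 2 and 19.7 CPM in IFN-γ tumor 3. Cd8a and Cd8b1 together were at 14.7 to 28.0 CPM in the controls and at 38.6, 36.5 and 14.3 CPM in the IFN-γ tumors. The 7 natural killer cell genes summed to 33.3 to 51.4 CPM against 79.5, 80.9 and 23.4 CPM, with Klra4 and Klra8 at 0 counts in every tumor. Klrk1 was the largest part of this sum, with means of 20.2 CPM in the controls and 33.1 CPM under IFN-γ. Klrd1 was at 9.15 against 11.7 CPM. The means of Ncr1 (9.44 against 10.3 CPM), Klre1 (4.27 against 4.66 CPM) and Klrb1c (1.56 against 1.52 CPM) hardly differed. With all 6 tumors the median log2 fold change of the 5 tested was 0.13. IFN-γ tumor 3 was the lowest tumor for 4 of the 5 T cell genes and for the 5 natural killer cell genes with counts. In bulk tumors, fewer cells of a type and less RNA per cell cannot be told apart.

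For 6 of the effectors (Gzma, Gzmb, Gzmk, Prf1, Fasl and Nkg7), the level was therefore also divided by the summed level of Cd3d, Cd3e and Cd3g, the CD3 chains of the T cell receptor complex, as log2 of CPM plus 0.5. For Gzmb this ratio was 0.032, -0.20 and -0.17 in the controls, against -0.30, -0.097 and -0.15 under IFN-γ. The groups overlapped, and IFN-γ tumor 3 no longer stood below the rest. From the lowest to the highest tumor, Gzmb spanned 0.33 on this log2 ratio scale against 1.62 in log2 CPM, and Nkg7 0.34 against 1.64. Prf1 spanned 0.64 against 1.56, Fasl 0.53 against 1.28, Gzmk 0.67 against 1.05 and Gzma 0.90 against 1.39.

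The mean log2 ratio to CD3 differed between the groups by -0.069 for Gzmb (control mean -0.11 ± 0.13, IFN-γ mean -0.18 ± 0.10, SD, n = 3; exact two-sided permutation test, p = 0.6). For Gzma the difference was 0.042, for Prf1 0.020, for Nkg7 -0.024 and for Gzmk -0.023. Fasl had the largest, at -0.22 (exact permutation test, p = 0.2). The groups overlapped for each of the 6 genes, and each adjusted p over the 6 tests was 1 (exact permutation test, in which 3 tumors against 3 cannot go below 0.1). With these group sizes the test cannot show that the ratios were alike. T cells are also not the only source of these transcripts, and the sum of the natural killer cell genes moved in the same way across the tumors.

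**Figure D3:**
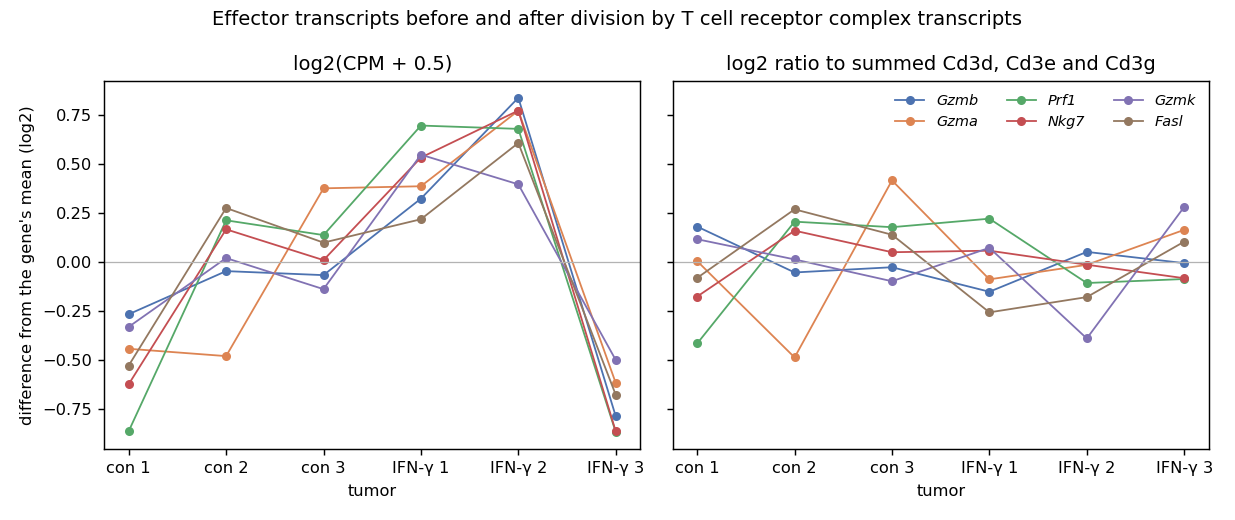
Gzmb, Gzma, Prf1, Nkg7, Gzmk and Fasl in each tumor as the difference from the gene's own mean over the 6 tumors, in log2(CPM + 0.5) on the left and as the log2 ratio to summed Cd3d, Cd3e and Cd3g on the right, on the same vertical axis. On the left all 6 lines peak in IFN-γ tumors 1 or 2 and drop in IFN-γ tumor 3; on the right Gzmb and Nkg7 stay within a span of 0.33 and 0.34.

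The cluster granzymes Gzmc, Gzmd, Gzme and Gzmf did not share that pattern. Gzmc, the neighbor of Gzmb, had 22, 69 and 46 control counts against 51, 122 and 47 under IFN-γ, or 1.38, 3.89 and 2.63 CPM against 2.96, 7.45 and 2.91 CPM. IFN-γ tumor 2 was the highest and control tumor 1 the lowest, and the other 4 tumors lay together. Its log2 fold change was 0.75 with all 6 tumors (standard error 0.48, adjusted p = 0.65, edgeR), 0.96 without IFN-γ tumor 3 (adjusted p = 0.37, edgeR), 0.44 without control tumor 1, 1.14 without control tumor 2 and 0.15 without IFN-γ tumor 2.

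The control tumors held 0, 1 and 1 counts of Gzmd, and the IFN-γ tumors 4, 8 and 48. These made 0, 0.0564 and 0.0571 CPM against 0.232, 0.489 and 2.97 CPM. The groups did not overlap, and IFN-γ tumor 3 held most of the reads (48 counts, 95% Poisson interval 35.4 to 63.6, counting error only). Of Gzmf they held 1, 0 and 3 counts against 3, 4 and 38, with 0.171 CPM in control tumor 3 and 0.174 CPM in IFN-γ tumor 1. Gzme had 2, 1 and 2 counts against 3, 2 and 6. For Gzme the groups overlapped, and all but IFN-γ tumor 3 were at or below 3 counts.

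These 3 genes did not pass the filter on low counts and were compared by their mean CPM. Gzmd was at 0.0378 ± 0.0328 CPM in the control group and at 1.23 ± 1.51 CPM under IFN-γ (SD, n = 3; exact two-sided permutation test, p = 0.1, the smallest it can give). For Gzmf the means were 0.0780 ± 0.0868 and 0.923 ± 1.24 CPM (n = 3; exact permutation test, p = 0.1). Control tumor 3 and IFN-γ tumor 1 each had 3 counts of Gzmf, so its groups were separate only after scaling to library size. Without IFN-γ tumor 3 the differences in mean CPM shrank from 1.19 to 0.323 for Gzmd and from 0.845 to 0.131 for Gzmf. Gzme was at 0.0986 ± 0.0369 and 0.222 ± 0.131 CPM (n = 3; exact permutation test, p = 0.2). Among all genes with a count that did not pass the filter, the groups did not overlap with the IFN-γ group higher in 3.16%. That set includes genes with too few counts to separate the groups at all, and among the genes tested the share was 7.62%. In the edgeR fit with no filter, Gzmd passed the threshold (adjusted p = 0.020) and Gzmf did not (adjusted p = 0.13), where 0.558% of 26868 genes were called higher. No fold is given for Gzmd, since its control tumors lay below 3 counts.

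Because reads may be shared among Gzmd, Gzme, Gzmf and Gzmg, their counts were also summed. The sum was 3, 2 and 8 counts in the controls, 12 in IFN-γ tumor 1, 17 in IFN-γ tumor 2 and 118 in IFN-γ tumor 3. IFN-γ tumor 3 stood far above the other 5 in this sum. IFN-γ tumors 1 and 2 lay little above control tumor 3 at these low counts, and the sum was not tested. In the same tumor, 16 of the 18 epidermal keratinocyte genes were at their highest of the 6 tumors, Krt14 at 33.2 CPM against 0.169 to 3.88 CPM in the other 5. This list was added after the data were seen, and its part in the counts of Gzmd and Gzmf was not tested.

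**Figure D4:**
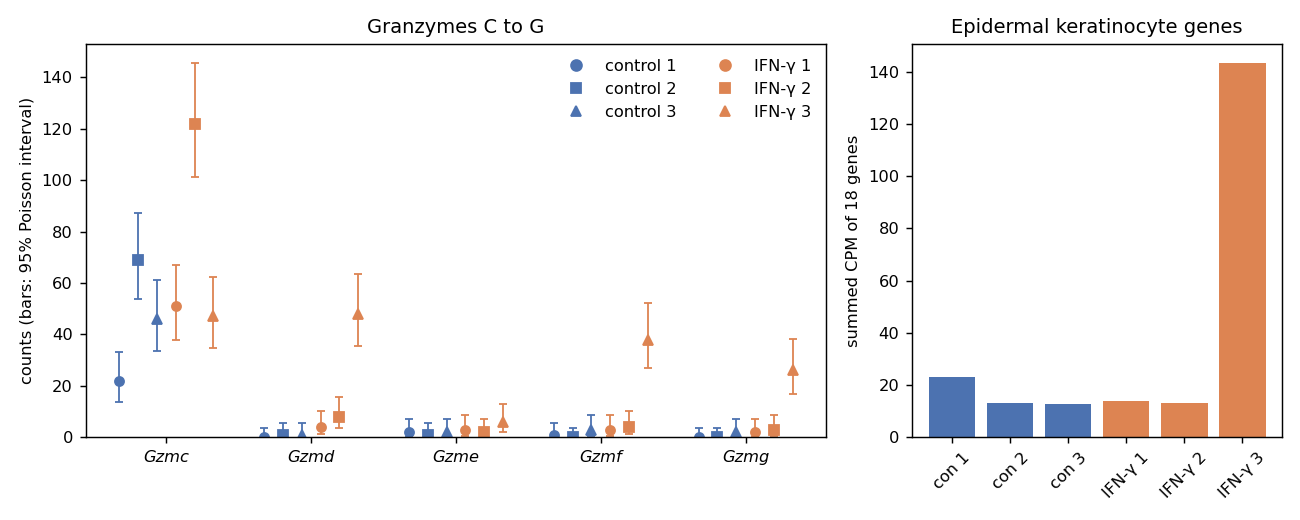
Left, counts of Gzmc, Gzmd, Gzme, Gzmf and Gzmg in each tumor with 95% Poisson intervals; right, the summed CPM of 18 epidermal keratinocyte genes in each tumor. IFN-γ tumor 3 is the highest for Gzmd (48 counts), Gzmf (38) and Gzmg (26) and for the keratinocyte genes (143 CPM), while Gzmc is highest in IFN-γ tumor 2 (122 counts).

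The make-up of the granzyme reads differed accordingly. The granzyme genes together had 606, 776 and 959 counts in control tumors, against 1104, 1468 and 629 with IFN-γ. Gzmb made up 50.7%, 51.3% and 40.4% of them in the controls, against 45.5%, 46.7% and 34.0% under IFN-γ. Gzma made up 41.4%, 34.9% and 51.2% against 44.1%, 41.3% and 35.6%. In both groups these 2 granzymes gave most of the reads, and neither share separated the groups.

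Gzmd, Gzme, Gzmf and Gzmg together made up 0.495%, 0.258% and 0.834% of the granzyme counts in the controls and 1.09% and 1.16% in IFN-γ tumors 1 and 2. In IFN-γ tumor 3 they made up 18.8% (95% exact binomial interval 15.8% to 22.0%). Per kilobase of exon the share there was 22.2%. The low total of that tumor and its high counts of these 4 genes both entered the share.

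**Figure D5:**
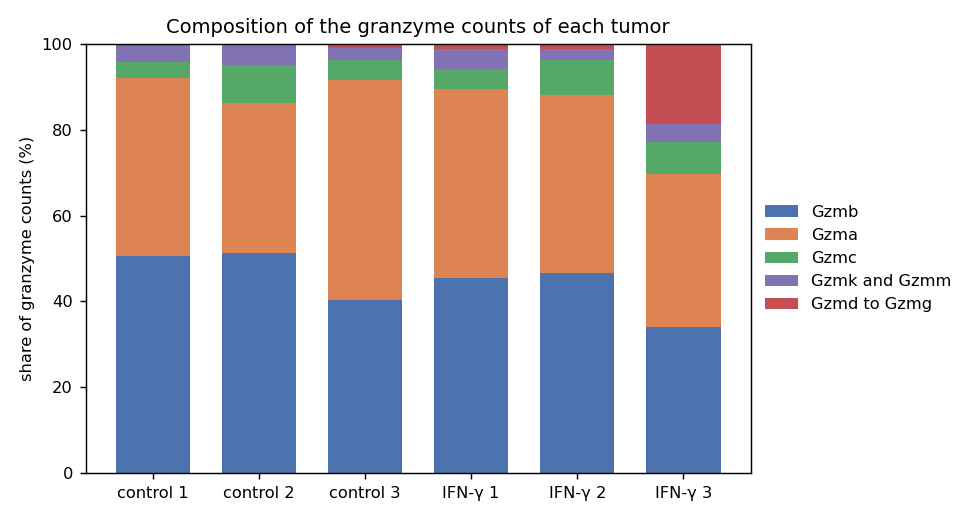
Share (%) of each granzyme in the summed granzyme counts of each tumor, as bars stacked to 100%. Gzmb and Gzma fill most of each bar, and Gzmd to Gzmg reach 18.8% in IFN-γ tumor 3 against 1.16% or less in the other 5 tumors.

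Among the other granzymes, Gzmm was low in all tumors with overlapping groups, at 0.750, 1.01 and 0.686 CPM in the controls and 1.34, 0.794 and 1.05 CPM in the IFN-γ group (log2 fold change 0.37, adjusted p = 0.78, edgeR). Gzmg, whose first coding bases match those of Gzmd, had 0, 0 and 2 counts against 2, 3 and 26. Gzmn, another gene of the cluster, had 0 counts in every tumor.

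Genes that mature and release the granules were followed as a list. Of 12 such genes, 12 were tested and 0 passed the threshold in all 6 tumors, 10 were above 0, and the median log2 fold change was 0.25. Rab27a, which docks granules at the membrane, had the highest fold change, with 4.63, 5.58 and 5.43 CPM in the controls and 8.47, 10.3 and 5.87 CPM in the IFN-γ tumors (0.65, standard error 0.23, adjusted p = 0.39, edgeR). Its groups did not overlap, with the IFN-γ tumors higher, as in 7.62% of all genes tested. Stx11, a syntaxin of the release step, was the lowest at -0.22.

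Without IFN-γ tumor 3, 2 genes of this list, Ctsc and Vamp8, passed the threshold, where 2.46% of all genes were called higher. Ctsc, the peptidase that activates granzyme precursors, was at 380, 533 and 460 CPM in the controls and at 717, 849 and 385 CPM in the IFN-γ tumors. IFN-γ tumors 1 and 2 were above every control and IFN-γ tumor 3 was within their range. The log2 fold change of Ctsc was 0.51 with all 6 tumors and 0.77 without IFN-γ tumor 3 (adjusted p = 0.025, edgeR). Ctsc was far more abundant than Gzmb in each tumor, and which cells expressed it was not tested. Vamp8, a vesicle fusion protein found in many cell types, was at 92.3, 87.0 and 91.1 CPM against 112, 127 and 109 CPM. All 3 IFN-γ tumors were above the controls, as in 7.62% of all genes tested, and the log2 fold change was 0.36 with all 6 (adjusted p = 0.22, edgeR) and 0.40 without IFN-γ tumor 3 (adjusted p = 0.037, edgeR). Srgn, the proteoglycan that packs granzymes, was at 39.8, 43.7 and 57.8 CPM against 61.6, 73.7 and 47.6 CPM, with overlapping groups.

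The serpins that inhibit granzymes did not move together. Of 5 tested, 0 passed with all 6 tumors or without IFN-γ tumor 3, and the median log2 fold change was 0.0017 with all 6. Serpinb9, the intracellular inhibitor of granzyme B, was at 38.6, 55.4 and 55.8 CPM in the controls and 55.5, 58.6 and 28.6 CPM in the IFN-γ tumors. Serpina3n had the highest log2 fold change at 0.49 and Serpinb9b the lowest at -0.42 (adjusted p = 0.22, edgeR). Serpinb9b was at 40.4, 34.5 and 39.0 CPM in the controls and at 29.0, 26.8 and 29.1 CPM in the IFN-γ tumors, so that each IFN-γ tumor was below every control, as in 7.5% of all genes tested.

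As a further list, 12 death ligands, receptors and executioners were tested, and 0 passed with all 6 tumors (median log2 fold change -0.047). Tnfsf10, which encodes the death ligand TRAIL, was at 14.2, 20.7 and 18.9 CPM in the controls and at 31.8, 31.2 and 12.3 CPM in the IFN-γ tumors. IFN-γ tumors 1 and 2 were above all controls and IFN-γ tumor 3 below, as for Gzmb. Tnfsf10 alone of the 12 passed the threshold without IFN-γ tumor 3 (log2 fold change 0.80, adjusted p = 0.033, edgeR), where 2.46% of all genes were called higher. Lta, which encodes lymphotoxin, had the lowest fold change with all 6 tumors, at -0.65 (adjusted p = 0.76, edgeR). Fas was at 5.56, 5.47 and 8.34 CPM against 8.71, 10.4 and 6.93 CPM.

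Of 8 transcription factors of cytotoxic lymphocytes, 7 were tested and 0 passed. Eomes, which drives Prf1 and Gzmb in CD8+ T cells, had the highest log2 fold change at 0.44, with 2.31, 2.93 and 5.60 CPM in the controls and 4.59, 7.39 and 2.78 CPM in the IFN-γ tumors. Tbx21, its relative T-bet, was at 3.19, 4.90 and 3.54 CPM against 5.05, 6.41 and 2.54 CPM. Both were low in IFN-γ tumor 3, and neither separated the groups. Runx3 had the lowest fold change, at 0.013.

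Cytokines and receptors that induce granzymes numbered 14, of which 11 were tested. None passed with all 6 tumors, all 11 were above 0, and the median log2 fold change was 0.39. Il15ra, which presents interleukin 15 to lymphocytes, was at 6.31, 6.48 and 8.40 CPM in the controls and 11.6, 14.1 and 5.38 CPM in the IFN-γ tumors. It alone of the 11 passed without IFN-γ tumor 3 (0.85, adjusted p = 0.049, edgeR), where 2.46% of all genes were called higher. Ifng, the transcript of the host's own IFN-γ, had the highest log2 fold change of the list at 0.81 (standard error 0.67, adjusted p = 0.75, edgeR). It was at 0.438, 0.733 and 1.31 CPM in the controls and 1.57, 2.50 and 0.309 CPM in the IFN-γ tumors, again with IFN-γ tumor 3 at the bottom. Il21r was the lowest at 0.052.

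The genes whose course over the 6 tumors was most like that of an effector were ranked by the root mean square difference of their centered log2(CPM + 0.5) values among 11331 genes with a mean of at least 5 CPM. Closest to Gzmb were Prkcq, a kinase of T cell receptor signaling (0.055), Irf7, an interferon regulatory factor (0.090), Gm36161 (0.10), Ptprcap, which binds CD45 (0.10), and Gimap7, a lymphocyte GTPase (0.11). Irf7 was far more abundant than Gzmb, at 178, 186 and 178 CPM in the controls and at 261, 335 and 125 CPM in the IFN-γ tumors. Closest to Prf1 were Cxcl10, a chemokine for T cells (0.12), the T cell receptor kinase gene Zap70 (0.12), Trbc2 (0.14), the receptor gene Klrd1 (0.16) and Sorl1 (0.16). Closest to Gzmc were Xcl1, a chemokine made by CD8+ T cells and natural killer cells (0.21), Pdcd1lg2, the ligand PD-L2 (0.22), Scimp (0.27), Ms4a4d (0.28) and Zdhhc2 (0.30). These are likenesses over 6 tumors that share the same libraries, and no test was made of them.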

How the data were processed

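For each of the 6 tumors the authors deposited raw counts, whole numbers with no scaling. The submitters' processing notes name HISAT2 and mm10; versions, the counting program and the strandedness are not given in the sources used here. The 10 genes and the gene and marker lists were chosen with earlier results of these data known. The genes named are the 10 members, listed genes that were called, highest or lowest in their list or with a stated role, and the 5 most alike in course. CPM used TMM factors. Genes were filtered by filterByExpr and tested by the quasi-likelihood test of edgeR 4.0.16 (R 4.3.3), with Benjamini-Hochberg adjustment over all genes tested and a threshold of 0.05. DESeq2 1.42.0, limma 3.58.1 (voom), other scalings and filters, a replicate block and leaving out single tumors were the alternatives. Exact permutation tests were two-sided (SciPy 1.17.1). The scripts were tested on simulated data. Positions come from GENCODE M21 (99.4% of the identifiers matched), and promoters, found for all 10 genes, from RefSeq. Motifs were searched in 250 upstream bases. Results on 1 listed gene and 1 motif are not reported here. No 2 libraries appeared to be duplicates (correlations of log2 CPM from 0.980 to 0.993).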

Additional observations from a re-analysis of the deposited data

How the results depend on the processing

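With all 6 tumors, 12 genes were called higher and 5 lower, and the fits that each left out 1 tumor gave from 4 to 381 higher and from 2 to 112 lower, most without IFN-γ tumor 3. DESeq2 called 125 and 71, keeping all genes with a count 150 and 70, and the fit without control tumor 1 and IFN-γ tumor 3 178 and 40. Library size only gave 7 higher and limma-voom 3 lower. Of the 10 effector genes, from 0 to 1 were called when 1 tumor was left out (Gzmb, without IFN-γ tumor 3), 1 with no filter (Gzmd), and 0 under the other alternatives run. Of 97 comparisons of their fold changes, 93 kept direction and side of the threshold, 1 passed it only under the alternative and 3 reversed, all within the ranges of -0.0053 to 0.73 for Gzmb and -0.18 to 0.50 for Fasl over the fits without 1 tumor. The differences in mean CPM of Gzmd, Gzme and Gzmf kept their direction in 21 of 21 comparisons, from 0.323 to 1.69 for Gzmd, 0.0496 to 0.174 for Gzme and 0.131 to 1.22 for Gzmf over the tumors left out. The shares of granzymes moved by less than the spread in 63 of 63. For Gzmd, Gzmf and Gzmg that says little, since their spread came mostly from IFN-γ tumor 3. Without that tumor, the difference in share (IFN-γ minus control, percentage points) fell from 2.77 to 0.376 for Gzmd and from 2.04 to 0.113 for Gzmf. Some shares changed direction, such as that of Gzma from -2.16 to 2.19 without control tumor 3.

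The replicate numbers did not pair the tumors (correlations of deviations -0.24, -0.0047 and -0.22). The replicate block gave 5 higher and 2 lower genes and changed no call of the effector genes.

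Of 66 comparisons of the ratios to CD3, 17 reversed. Fasl stayed below 0 in its 11 alternatives, between -0.41 against CD8 genes (exact permutation test, p = 0.1, the smallest possible) and -0.10 against Ptprc. Over the tumors left out the other ratios ranged from -0.19 to 0.26 for Gzma, -0.11 to 0.0047 for Gzmb, -0.17 to 0.17 for Gzmk, -0.18 to 0.13 for Prf1 and -0.12 to 0.050 for Nkg7. With a pseudocount of 0.1, Gzmk was at 0.052. Against CD8 genes, Gzma was at -0.14 and Prf1 at -0.17. Against natural killer cell genes, Gzmk was at 0.020 and Nkg7 at 0.018, and against Ptprc, Gzmb was at 0.050, Gzmk at 0.097 and Nkg7 at 0.095. Apart from the tumors included, the cause was not tested. Depth limits Gzmd, Gzme, Gzmf and Gzmk most.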

Other observations

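Other cells that can carry granule proteases or granzymes were followed by their markers. The 7 mast cell genes, several of them granule proteases themselves, summed to 475 to 726 CPM in the controls and 571, 591 and 737 CPM in IFN-γ tumors 1, 2 and 3, with Tpsab1 and Tpsb2 highest in IFN-γ tumor 3 and the other 5 genes highest in control tumor 1. None of the 7 passed the threshold with all 6 tumors or without IFN-γ tumor 3. The 5 regulatory T cell genes summed to 17.1 to 23.0 CPM against 25.0, 35.9 and 10.9 CPM, and the 5 genes of plasmacytoid dendritic cells, which can express Gzmb, to 53.0 to 89.8 CPM against 107, 122 and 64.7 CPM. Most of this last sum was Irf8, with a mean of 63.7 CPM in the controls and 86.1 CPM under IFN-γ. The means of Siglech (3.79 against 3.98 CPM) and Ccr9 (2.49 against 2.53 CPM) hardly differed. Those of Klk1 (2.59 against 3.88 CPM) and Ly6d (0.261 against 1.44 CPM) were higher under IFN-γ, but the groups overlapped for both. The higher mean of Ly6d came from IFN-γ tumor 3, at 3.90 CPM. For Ly6d, IFN-γ tumors 1 and 2, at 0.116 and 0.305 CPM, lay within the control range. Cd4 and Cd40lg together were at 7.44 to 12.9 CPM against 11.8, 16.7 and 4.76 CPM. The 6 genes of tissue-resident innate lymphocytes were at 40.1 to 55.2 CPM against 64.3, 59.3 and 33.7 CPM. With all 6 tumors, 2 of the 5 tested were above 0 (median log2 fold change -0.059). Without IFN-γ tumor 3, 5 of the 6 tested were above 0 (median 0.18), and Cxcr6 alone passed the threshold. Of the 5 natural killer cell genes tested in that fit, Klrk1 alone passed, at 1.09 against a list median of 0.54. In the same fit 2.46% of all genes were called higher.

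The 5 macrophage genes summed to 2508 to 3185 CPM in the controls and 4022, 5045 and 2887 CPM in the IFN-γ tumors, and 4 of them (Adgre1, Cd68, C1qa and Lyz2) passed without IFN-γ tumor 3, where 2.46% of all genes were called higher. The 6 neutrophil genes were at 4.17 to 15.3 CPM against 5.51, 8.19 and 12.4 CPM and the 3 B cell genes at 1.56 to 5.69 CPM against 0.813, 2.02 and 1.42 CPM. The 5 epithelial genes were at 165 to 188 CPM against 129, 123 and 283 CPM, most of it Krt20, with 2 of the 5 genes (Epcam and Krt20) highest in IFN-γ tumor 3 and Krt8 lowest there. Without IFN-γ tumor 3, Krt20 was called lower in the IFN-γ group, 1 of 112 genes called lower among the 15487 tested.

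Among 15408 genes with a mean of at least 0.5 CPM, a floor chosen after seeing the data, those closest in course to Gzmd were Asprv1 (root mean square log2 difference 0.34), Ly6d (0.44), Stfa3 (0.45), Dppa4 (0.45) and Gjb2 (0.45). Asprv1, Ly6d and Gjb2 are known from stratified epithelium, which is not said here of Stfa3 and Dppa4. Most reads of Gzmd lay in IFN-γ tumor 3, so this ranking favors any gene that was high in that tumor. It is therefore not separate support for a link between Gzmd and keratinocyte genes, which was not tested. Rn7sk, a small nuclear RNA, was also highest in IFN-γ tumor 3, at 23.1 CPM against 2.14 to 5.25 CPM in the other 5 tumors.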
